A study of Homo sapiens with 6 samples.

Results

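The genes described here encode the subunits of the transcription factor NF-kappaB and proteins that its activity induces, most of which feed back on it. A list of 10 was drawn up: the subunits NFKB1, NFKB2, REL, RELA and RELB, the IkappaB family members NFKBIA and NFKBIZ, the ubiquitin-modifying regulators TNFAIP3 and BIRC3, and TNFAIP2, an NF-kappaB-induced gene. A member was measured where a probe set of the array was annotated to that gene alone, and the brightest such probe set over all arrays stood for it. By this rule 9 of the 10 were measured, with 1 probe set each, among 18417 genes in all; BIRC3 was not analysed here, because none of the single-gene probe sets used carried its name.

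The cells were MDA-MB231, an established human line from a metastatic breast cancer, grown in serum-containing medium and harvested while dividing. There were 3 arrays of G9a knockdown cells, a stable knockdown described as 1 clone, and 3 arrays of the parental cells, called control. G9a, encoded by EHMT2, is an enzyme that methylates histone H3, a modification linked to gene silencing. A clone can differ from its parental line in ways other than the knockdown, and with 1 clone these cannot be told apart; no inducing cytokine is named for either group, so the levels are those of growing cells. All values are log2 intensities of total RNA, in which fewer expressing cells and less RNA per cell cannot be told apart. Nothing in the labels shows that the arrays of a group came from separate cultures, so the p-values measure only how far these samples spread, which may be a technical spread.

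NF-kappaB is a family of dimers built from 5 subunits that share a DNA-binding region. In resting cells the dimers are held inactive by IkappaB proteins, and the precursors made from NFKB1 and NFKB2 carry an IkappaB-like end of their own. Cytokine receptors activate IkappaB kinases, which mark IkappaB for destruction and free the dimers to enter the nucleus. Among the genes then induced are NFKBIA and TNFAIP3, whose products switch the pathway off again, so their RNA is widely read as a record of recent NF-kappaB activity. MDA-MB231 cells are known for NF-kappaB activity in the absence of an added cytokine.

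Of the 9 measured genes, NFKB2, NFKBIA, NFKBIZ and TNFAIP3 were lower in G9a knockdown cells, none was called higher and 5 did not pass (limma, adjusted p of 0.05 over all 18417 genes). Over all genes, 1.78% were called lower, 1.28% higher and 3.05% either way. This list and the pathway lists below were drawn up with earlier results of these data known, so such shares are a description. The 4 falls ran from 0.35 to 0.58 on the log2 scale. TNFAIP2 had the opposite sign, at 0.27, and did not pass. RELA, the main activating subunit, differed by 0.02.

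The promoters of the genes that fell are shown to set out the kappaB sites known to lie upstream of NF-kappaB-responsive genes, with that of TNFAIP2 for contrast. Each is the 250 bases before an annotated start in RefSeq (GRCh38.p14), 5′ to 3′ on the strand of the gene, and capitals mark matches to the 10-base kappaB consensus on either strand.
NFKB2, chr10:102394328-102394577, plus strand: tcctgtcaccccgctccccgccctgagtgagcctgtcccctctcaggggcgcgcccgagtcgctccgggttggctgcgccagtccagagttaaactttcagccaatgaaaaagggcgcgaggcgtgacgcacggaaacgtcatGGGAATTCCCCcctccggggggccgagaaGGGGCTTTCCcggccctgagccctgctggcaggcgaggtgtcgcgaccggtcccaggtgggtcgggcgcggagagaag
NFKBIA, chr14:35404750-35404999, minus strand: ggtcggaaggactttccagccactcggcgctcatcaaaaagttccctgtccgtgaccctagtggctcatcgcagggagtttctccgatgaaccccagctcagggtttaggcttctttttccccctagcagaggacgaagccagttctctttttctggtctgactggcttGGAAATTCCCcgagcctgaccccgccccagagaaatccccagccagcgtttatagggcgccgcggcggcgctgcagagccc
NFKBIZ, chr3:101827740-101827989, plus strand: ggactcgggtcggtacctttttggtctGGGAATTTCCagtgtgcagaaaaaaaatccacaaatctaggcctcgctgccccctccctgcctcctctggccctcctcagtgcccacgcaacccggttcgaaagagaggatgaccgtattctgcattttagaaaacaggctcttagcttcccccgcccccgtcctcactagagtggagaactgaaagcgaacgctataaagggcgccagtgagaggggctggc
TNFAIP3, chr6:137867009-137867258, plus strand: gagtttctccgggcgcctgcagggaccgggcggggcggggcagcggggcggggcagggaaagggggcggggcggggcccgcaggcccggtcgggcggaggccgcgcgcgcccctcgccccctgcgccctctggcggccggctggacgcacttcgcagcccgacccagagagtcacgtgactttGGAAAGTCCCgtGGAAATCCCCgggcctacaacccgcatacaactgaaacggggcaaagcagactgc
TNFAIP2, chr14:103123211-103123460, plus strand: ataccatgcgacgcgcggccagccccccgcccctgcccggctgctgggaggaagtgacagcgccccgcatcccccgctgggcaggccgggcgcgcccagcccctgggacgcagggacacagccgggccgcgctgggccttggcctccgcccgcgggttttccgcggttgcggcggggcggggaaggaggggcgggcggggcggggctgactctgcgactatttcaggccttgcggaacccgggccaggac

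The consensus is close to its own reverse complement, so a site can match on both strands or at overlapping positions. In the NFKB2 window the matches began 107, 106 and 78 bases before the start, in the NFKBIA window 81, in the NFKBIZ window 223, and in the TNFAIP3 window 67 and 55. NFKB2 had 3 annotated windows and NFKBIZ had 2; those shown are the NFKB2 window with the most matches and the first NFKBIZ window. Of the 9 listed genes with a window, 7 had a match in at least 1: these 4 together with REL, NFKB1 and BIRC3. RELA and TNFAIP2 had none, and RELB was not in the table. Of all 35116 windows of this length 5.21% held a match, and of 14237 measured genes with a window 7.67% did. A match is a description of the letters and does not show that a site was used in these cells. REL and NFKB1, which did not pass the test, had a match as well.

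Among the subunits, NFKB2 encodes p100, which is processed to p52 and serves the non-canonical arm of the pathway. NFKB2 read 10.30, 10.27 and 10.20 in G9a knockdown cells, against 10.53, 10.57 and 10.72 in control cells. The groups did not overlap, with a gap of 0.23 between the nearest arrays. The difference was -0.35 ± 0.07 (SE, n = 3 per group; limma, adjusted p = 0.0397), which put NFKB2 in the knockdown at 0.784 of the control level.

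NFKB1 encodes p105, the precursor of p50, the usual partner of RELA. It read 10.21, 10.41 and 10.44 in G9a knockdown cells and 10.48, 10.53 and 10.51 in control cells. All 3 knockdown arrays lay below the control arrays, but by a gap of only 0.04, and knockdown replicate 1 was well below the other 2. The difference was -0.16 ± 0.08 (SE; limma, adjusted p = 0.304), and without that array it was -0.08.

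REL, encoding c-Rel, a subunit best known from lymphocytes, read 9.38, 9.61 and 9.47 in G9a knockdown cells and 9.74, 9.65 and 9.53 in control cells. The groups overlapped. RELB, the partner of p52 in the non-canonical arm, read 8.81, 8.70 and 8.84 in the knockdown, against 8.79, 8.90 and 9.17 in control. Here too the groups overlapped, and control replicate 3 stood above the rest. Neither passed: REL was at -0.15 ± 0.08 (adjusted p = 0.349) and RELB at -0.17 ± 0.10 (SE; limma, adjusted p = 0.393), and RELB was at -0.06 without control replicate 3.

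RELA encodes p65, which carries the strong activation domain of the common p50-p65 dimer. Its arrays read 11.46, 11.39 and 11.31 in G9a knockdown cells, against 11.39, 11.40 and 11.30 in control cells, so the groups overlapped. The difference was 0.02 ± 0.07 (SE; limma, adjusted p = 0.912), with a 95% interval from -0.13 to 0.17. Its sign was not settled, turning to -0.01 without control replicate 3 and -0.02 without knockdown replicate 1.

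NFKBIA encodes IkappaB-alpha, the inhibitor that retains RELA dimers in the cytoplasm and is resynthesised when they reach the nucleus. It read 11.34, 11.25 and 11.15 in G9a knockdown cells, against 11.59, 11.56 and 11.79 in control cells. The highest knockdown array lay 0.22 below the lowest control array. The difference was -0.40 ± 0.08 (SE; limma, adjusted p = 0.0461), or 0.759 of the control level.

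NFKBIZ encodes IkappaB-zeta, a nuclear family member that is induced by interleukin-1 and, unlike IkappaB-alpha, helps to activate a set of secondary response genes. It read 9.08, 9.13 and 9.09 in G9a knockdown cells, against 9.40, 9.38 and 9.61 in control cells. The knockdown arrays were tightly grouped, and 2 of the control arrays nearly coincided below control replicate 3. The difference was -0.37 ± 0.08 (SE; limma, adjusted p = 0.0425), or 0.775 of the control level.

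TNFAIP3 encodes A20, a ubiquitin-editing enzyme that shuts down signalling from the TNF and interleukin-1 receptors. It read 8.78, 8.87 and 8.75 in G9a knockdown cells, against 9.26, 9.20 and 9.68 in control cells. The groups were separated by 0.32, and control replicate 3 lay far above the other control arrays. The SD was 0.06 in the knockdown and 0.26 in control. The difference was -0.58 ± 0.12 (SE; limma, adjusted p = 0.0466), or 0.670 of the control level, and -0.43 without control replicate 3 (adjusted p = 0.0265).

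TNFAIP2 was named for its induction by TNF; its product is known for forming membrane nanotubes and is not an inhibitor of the pathway, so the name of the list does not describe it. It read 10.07, 10.07 and 10.06 in G9a knockdown cells, against 9.70, 9.82 and 9.88 in control cells. The knockdown arrays all lay above the control arrays. The difference was 0.27 ± 0.07 (SE; limma, adjusted p = 0.0694), with a 95% interval from 0.12 to 0.42.

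**Figure D1:**
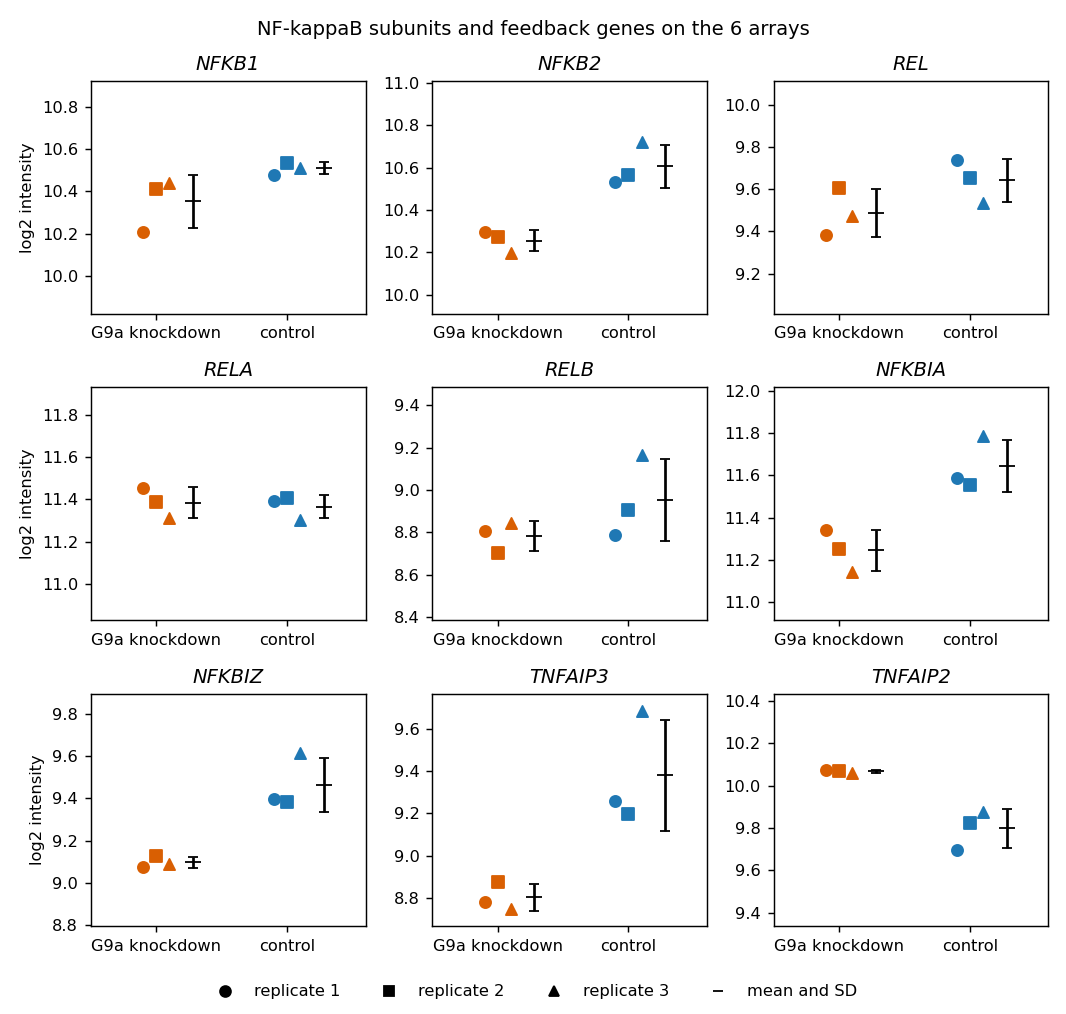
Log2 intensity (vertical axes, all spanning the same range of log2 units but centred on each gene) of the 9 measured genes in G9a knockdown (orange, left) and control (blue, right) arrays. Each symbol is 1 array, and the black bar is the mean with its SD (n = 3). NFKB2, NFKBIA, NFKBIZ and TNFAIP3 show 2 separate groups with knockdown below control, TNFAIP2 the opposite order, and RELA none.

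**Figure D2:**
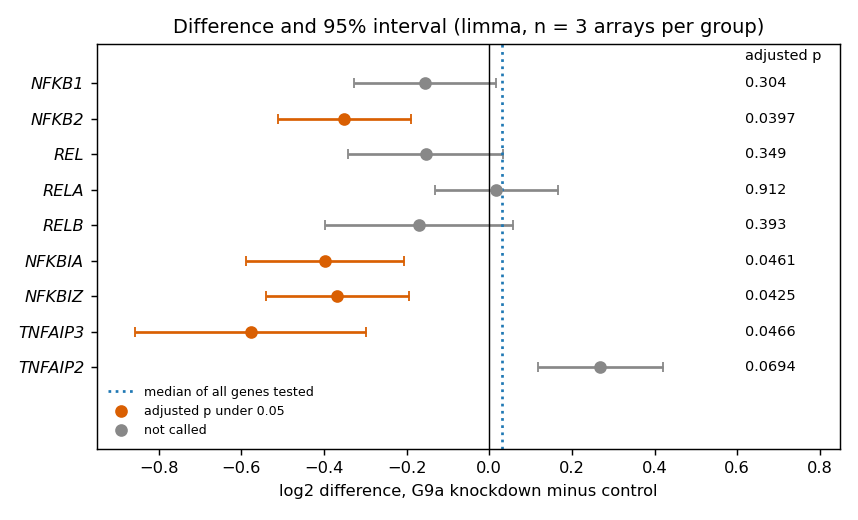
Log2 difference, G9a knockdown minus control, with its 95% interval from limma for the 9 measured genes (rows), with adjusted p at the right. Orange marks the 4 genes with adjusted p under 0.05, from 0.0397 to 0.0466, grey the others, and the dotted line the median of all genes tested, 0.03.

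As a group, 7 of the 9 had negative differences and 2 positive ones, with a median of -0.17, against a median of 0.03 over all genes. The list was drawn up with earlier results of these data known, so the contrast is a description. In 5 of the 9 all knockdown arrays lay below all control arrays, as they did for 12.7% of all genes, and in 1 they all lay above, as for 14.3%. After each gene was centred on its own mean over the 6 arrays, the average of the 9 was -0.11, -0.08 and -0.12 in the knockdown arrays and 0.05, 0.07 and 0.20 in the control arrays. Control replicate 3 was thus the highest array. It held the highest value of all 6 arrays for 5 of the 9: NFKB2, RELB, NFKBIA, NFKBIZ and TNFAIP3. Without it the median was -0.21, and the 4 genes that fell had differences from -0.43 to -0.29, as the plot of settings shows.

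The calls stood close to the threshold. With 1 array left out at a time, NFKB2 and NFKBIA passed in 0 of 6 fits (adjusted p between 0.0557 and 0.164 for NFKB2, and between 0.0683 and 0.174 for NFKBIA). NFKBIZ and TNFAIP3 passed in 1 of 6, the fit that left out control replicate 3. Their adjusted p over the 6 fits ran from 0.0452 to 0.158 for NFKBIZ and 0.0265 to 0.171 for TNFAIP3. After quantile normalization NFKBIZ alone of the 4 passed, with limma adjusted p of 0.0529 for NFKB2, 0.0627 for NFKBIA and 0.0510 for TNFAIP3. Over all genes 622 were then called, against 562 in the reported fit. With every probe set tested none of the 4 passed (adjusted p from 0.118 to 0.139). The size of the difference moved less with 1 array left out: from -0.39 to -0.29 for NFKB2, -0.44 to -0.33 for NFKBIA, -0.41 to -0.29 for NFKBIZ and -0.67 to -0.43 for TNFAIP3. TNFAIP2 stayed between 0.22 and 0.31 and passed in 0 of the 6. It did pass with a variance trend (limma, adjusted p = 0.0364), with array weights (0.00973) and with the dimmest genes left out, 12278 being kept (0.0367). The 4 genes that fell passed in these settings too, and with median centring. Over all genes 1083, 3328, 972 and 568 were called in these settings, in the order given.

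**Figure D3:**
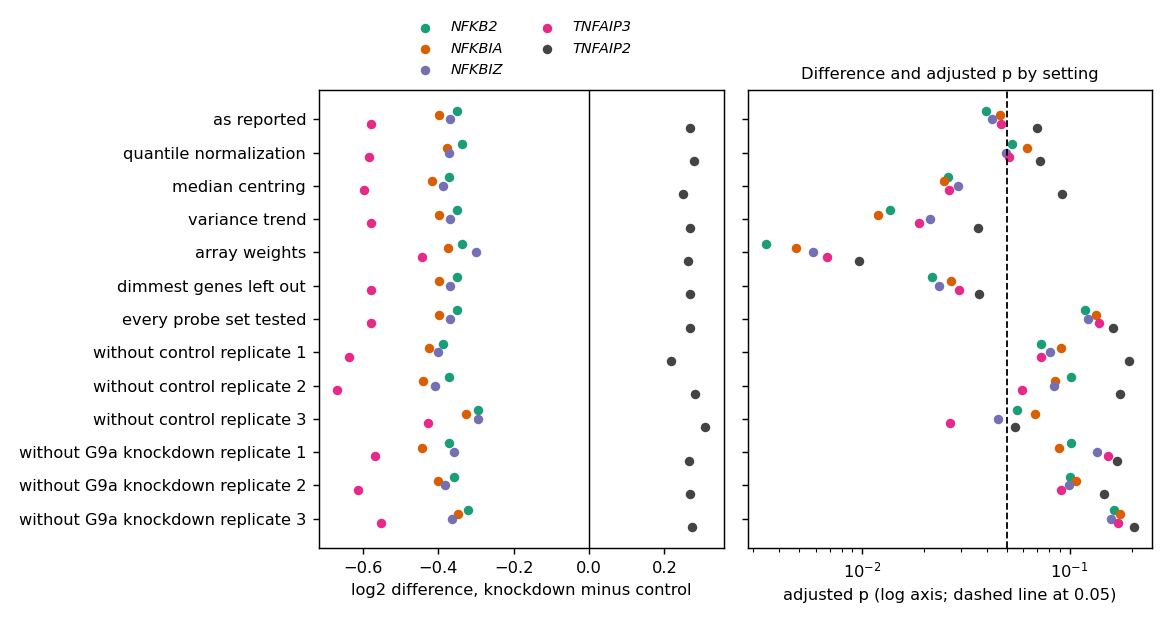
Log2 difference (left) and adjusted p on a log axis (right, dashed line at 0.05) of the 4 genes that fell and of TNFAIP2, under the reported fit and 12 alternatives (rows). The 4 falls stay between -0.67 and -0.29 in each, while adjusted p lies on either side of the line.

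As a check of the labels, EHMT2 read 9.66, 9.59 and 9.51 in G9a knockdown cells, against 10.21, 10.27 and 9.93 in control cells, a fall of 0.55 ± 0.10 (SE; limma, adjusted p = 0.0259). With 1 array left out it ran from -0.66 to -0.49 and passed in 1 of 6 fits, that without control replicate 3. Array medians lay between 7.79 and 7.86, and control replicate 3 had the largest SD of deviations from its group mean, 0.127, against 0.0758 to 0.106 on the other arrays. VIM, CD44, FN1, AXL and CAV1, strongly expressed in this line, read 12.7 to 13.7 on every array. Of markers of other cell types, 0 of 4 leukocyte and 0 of 5 fibroblast genes were called (limma; 1 and 0 had an unadjusted p under 0.05), and of 5 endothelial genes CDH5 was higher (0.71) and KDR lower (-0.64). Of 5 genes listed as low in this line, CDH1 was higher (0.45) and 4 did not pass. ESR1, PGR and CDH1 were among the dimmest genes by mean level. EPCAM, at 8.51 to 8.99, and GATA3, at 9.22 to 9.39, read above the array medians, so the values did not show these to be low. Summed log2 levels of the leukocyte genes were 26.5 to 26.8 in knockdown and 26.0 to 26.5 in control arrays. Those of the fibroblast genes were 34.98 to 35.4 in knockdown and 34.2 to 35.4 in control arrays, and those of the endothelial genes 37.2 to 37.5 in knockdown and 36.3 to 37.3 in control arrays. Their part in the results was not tested. No detection call was used, so a marker near background could not be called absent.

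The genes beside each of the 9 on its chromosome were set against it. For each, the 20 measured genes on either side in the RefSeq gene order of GRCh38.p14 were taken, and their median difference is given as a description. TNFAIP3, on chromosome 6, lay below all 40 of its neighbours, whose median was 0.02. NFKBIZ, on chromosome 3, lay below 38 of 40 (median -0.01), NFKBIA, on chromosome 14, below 38 (median -0.06), and NFKB2, on chromosome 10, below 39 (median -0.09). Of all genes 1.78% were called lower, so for a called gene a place below most neighbours largely follows from the call. TNFAIP2, also on chromosome 14, lay above all 40 of its neighbours, whose median was -0.06. NFKB1, on chromosome 4, differed least from its surroundings among the genes with negative values: 11 of its 40 neighbours lay lower still, 27 were negative and their median was -0.07. RELB (neighbour median 0.05) and REL (0.01) lay below 38 and 39 of their 40 neighbours, and RELA below 28 (median 0.08).

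**Figure D4:**
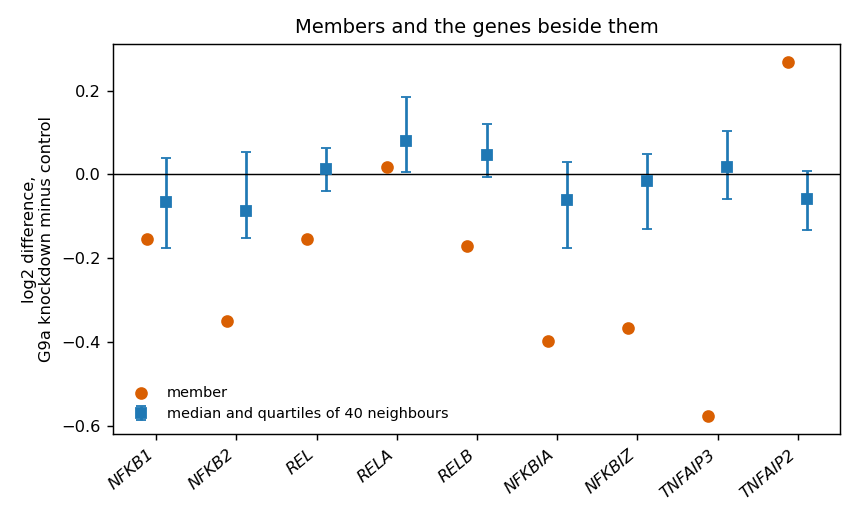
Log2 difference, G9a knockdown minus control (vertical axis), of each of the 9 genes (orange) beside the median and quartiles of its 40 measured neighbours on the chromosome (blue). TNFAIP3 and TNFAIP2 lie outside the range of all their neighbours, and NFKB1 and RELA lie within the quartiles of theirs.

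The rest of the pathway was followed through 76 genes in 5 lists by role, of which 71 were measured singly; 2 were higher, 6 lower and 63 did not pass. Of 9 genes for receptors and TNF none passed (limma; 0 at an unadjusted p under 0.05), and the largest values were those of TNF itself (0.17) and of IL1RAP, the interleukin-1 receptor accessory chain (-0.16). Of 14 measured adaptor and ubiquitin signalling genes none passed either (limma; 3 at an unadjusted p under 0.05, against 3568 of all 18417 genes); TRAF6, which relays interleukin-1 receptor signals, was at -0.19 (adjusted p = 0.112) and TRAF3, a restraint on the non-canonical arm, at -0.18 (adjusted p = 0.223). With array weights both TRAF6 and TRAF3 passed, with limma adjusted p of 0.0218 and 0.0191. That setting called 2 of these 14 genes and 3328 of all 18417. The medians of these lists were -0.04 and 0.02, near the 0.03 of all genes.

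Of the 6 genes for kinases, or their subunits, that act on IkappaB or on NFKB2, CHUK, encoding IKK-alpha, fell by 0.33 (limma, adjusted p = 0.0461). Its mean was 10.30 ± 0.08 in the knockdown and 10.63 ± 0.08 in control (SD, n = 3 each). After median centring its adjusted p was 0.0507, and with 1 array left out it passed in 1 of 6 fits, that without control replicate 3. MAP3K14, encoding the NF-kappaB-inducing kinase that triggers NFKB2 processing and named after its value was seen, was at 0.37 and did not pass (limma, adjusted p = 0.261). It read 9.96, 9.96 and 9.77 in G9a knockdown cells, against 9.76, 9.71 and 9.10 in control cells. Control replicate 3 thus lay far below the other control arrays, and the gap between the groups was 0.005.

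Among 16 other IkappaB proteins and brakes, 3 fell, 0 rose and 13 did not pass. TNIP1, whose product binds A20 and helps it to act, fell by 0.55 ± 0.07 (SE; limma, adjusted p = 0.0120). It read 9.96, 9.98 and 9.89 in G9a knockdown cells, against 10.46, 10.40 and 10.63 in control cells. ZC3H12A, encoding Regnase-1, an RNase that degrades cytokine mRNAs and is itself induced by interleukin-1, fell by 0.55 (adjusted p = 0.0446), and CYLD, a deubiquitinase that restrains the pathway, fell by 0.39 (limma, adjusted p = 0.0380). The list's median was -0.06. TNIP1 passed in 4 of the 6 fits with 1 array left out, ZC3H12A in 2 and CYLD in 0. After quantile normalization ZC3H12A did not pass (adjusted p = 0.0579). TNIP1 lay below all 40 of its chromosomal neighbours (median -0.10), as did ZC3H12A (median -0.04), and CYLD below 39 of 40. For genes called lower this largely follows from the call.

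Of 26 measured NF-kappaB target genes, 2 were called higher and 2 lower. Another 22 did not pass; 13 of the 26 had an unadjusted p under 0.05 and 20 a negative value, against 3568 and 7441 of the 18417 genes in all. IL1A, an activating ligand of the pathway as well as a target, fell by 1.92, and the neutrophil chemokine gene CXCL1 fell by 1.34 (limma, adjusted p = 0.0415 and 0.0458). After quantile normalization CXCL1 did not pass (adjusted p = 0.0533). CXCL8 and CXCL2, named after their values were seen, had larger falls than CXCL1, at -1.49 and -1.41, and did not pass (limma, adjusted p = 0.0558 and 0.0613). They read 11.83 and 10.01 on control replicate 3, against 10.43 and 8.64 on control replicate 1 and 10.44 and 8.62 on control replicate 2. Both passed with median centring, a variance trend, array weights, the dimmest genes left out and without control replicate 3. The interferon-inducible chemokine gene CXCL10 rose by 1.43, and VCAM1, for an adhesion molecule of activated endothelium, rose by 0.68 (limma, adjusted p = 0.0112 and 0.0273). VCAM1 read only 6.96 to 7.34 in control arrays and was 1 of 8 target genes among the dimmest genes. With the dimmest genes left out, 18 target genes were kept, of which 1 was called higher and 5 lower. The list's median was -0.20, and -0.08 without control replicate 3. Its average level after centring each gene was -0.13, -0.14 and -0.15 in the knockdown arrays and -0.02, 0.03 and 0.40 in the control arrays, so control replicate 3 stood higher here than for the subunits and inhibitors. Without that array 6 target genes were called lower and 2 higher. IL1A was then at -1.37 and CXCL1 at -0.96. With 1 array left out at a time IL1A passed in 2 of 6 fits, CXCL1 in 1, CXCL10 in 4 and VCAM1 in 1.

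**Figure D5:**
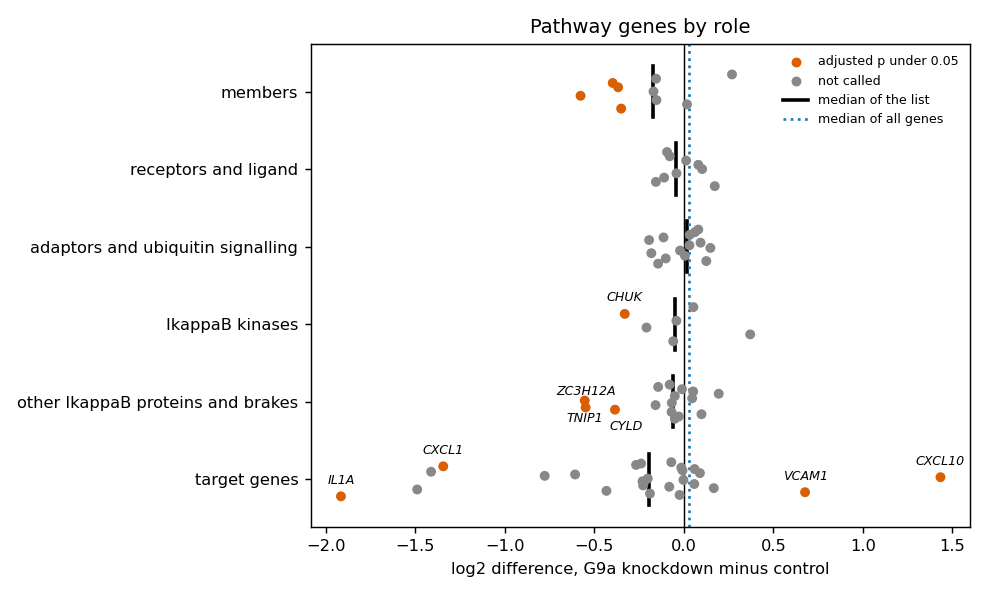
Log2 difference, G9a knockdown minus control (horizontal axis), of each measured gene of the list described here (top row) and of the 5 pathway lists (rows below). Points are genes, orange where adjusted p was under 0.05, the black bar is the list's median and the dotted line the median of all genes, 0.03; the called pathway genes are named.

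The genes most like each of the 4 that fell were taken by the smallest Euclidean distance between log2 values centred on the 6-array mean, over the 6 arrays. For NFKB2 these were PPIF, UBASH3B and SARS1, and for NFKBIZ they were ATP1B1, SARS1 and SBF2. For NFKBIA they were KRT19, CACNB1 and NFKB2 itself, at distances of 0.07, 0.10 and 0.11 log2 units. For TNFAIP3 they were LRATD2, GADD45A and IL6, at distances of 0.05, 0.11 and 0.13. All of these genes had their highest value on control replicate 3, as the 4 genes did, which follows closely from choosing them by distance. Seen from NFKB2, NFKBIZ ranked 13 and NFKBIA ranked 21 among all genes, while TNFAIP3, with a larger difference, ranked 2612. RELB ranked 1171, NFKB1 2332 and REL 3756.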

How the data were processed

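The deposited log2 values, 1 per probe set and array (33297 probe sets, 6 arrays), were already summarised and on a common scale when the authors deposited them, with software, method and log base not given in the sources used here. Log2 was inferred from the range of the values. Of the probe sets, 19460 were annotated to a single gene; symbols were updated through the Entrez number against RefSeq GRCh38.p14 (19429 matched), and the brightest probe set per gene left 18417 genes. BIRC3 was not among them. All genes were tested together in limma (version 3.58.1, under R 4.3.3), using lmFit and eBayes without trend or covariate and with 4 residual degrees of freedom, G9a knockdown minus control, two-sided, with p-values adjusted by the Benjamini-Hochberg method. The number of arrays limits the precision. In simulated arrays with 18417 genes, the fit recovered 73.0% of genes set to change by 0.5 on the log2 scale. It recovered 100.0% of those set to change by 1, among 200 changed genes, beside 15 false calls. The noise followed limma's own model and was drawn independently for each gene and array. A shift shared by many genes on 1 array was therefore not simulated, nor was a change smaller than 0.5.

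The members, the pathway lists, the kappaB consensus and the rules were chosen with earlier results of these data known. Named genes were all members and EHMT2, up to 4 called genes per list (or the 2 with the largest absolute differences where none was called), and the 3 nearest genes of each called member. Alternatives were quantile normalization, median centring, a variance trend, array weights, leaving out the dimmest genes by mean level (12278 kept), testing every probe set, the replicate number as a term, and leaving out each array.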

Additional observations from a re-analysis of the deposited data

How the results depend on the processing

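The 4 falls among the NF-kappaB genes kept their sign in all 13 alternatives, but most of these could not have changed it. A variance trend, leaving out the dimmest genes, testing every probe set and the replicate number as a term leave the difference as it was. In these 4 genes all knockdown arrays lay below all control arrays, so leaving out or weighting arrays could not turn the sign either. RELA alone changed sign among the 9 members, EHMT2 and the 12 pathway genes refitted under the alternatives. Its difference was -0.0029 with median centring, -0.050 with array weights and from -0.018 to 0.054 with 1 array left out. The number of members called was 4 with median centring. It was 5, TNFAIP2 among them, with a variance trend, with array weights and with the dimmest genes left out. It was 1 (NFKBIZ) after quantile normalization, 0 with every probe set tested and 0 to 2 with 1 array left out. Of the pathway genes, 6 were called after quantile normalization, 10 with median centring and 10 with the dimmest genes left out. With a variance trend 13 were called, with array weights 20, with every probe set tested 0 and with 1 array left out 0 to 11. Over all genes, 622 were called after quantile normalization and 568 with median centring. With a variance trend 1083 were called, with array weights 3328 and with the dimmest genes left out 972. With every probe set tested (an adjustment over 33297 tests) 47 were called, and 44 to 535 with 1 array left out. EHMT2 was at -0.55 with every probe set tested (adjusted p = 0.0957) and at -0.66 to -0.49 with 1 array left out, passing in 1 of 6 fits, that without control replicate 3. The cause of these changes, including the part of the smaller number of arrays or the larger number of tests, was not tested.

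Replicate numbers come from the titles and share only a number: deviations of same-numbered arrays correlated at -0.246, 0.122 and 0.0877. With the replicate number as a replicate block, 217 genes, 0 members and 3 pathway genes (CXCL10, VCAM1 and TNIP1) were called. No detection call per probe set was used here, so a low value may be background.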
